A study of Homo sapiens with 4 samples.

Results

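The genes examined were 7 cyclins (CCND1, CCND3, CCNE1, CCNE2, CCNA2, CCNB1 and CCNB2) and 3 cyclin-dependent kinases (CDK6, CDK2 and CDK1), taken by symbol from a deposited table of 6828 genes, which listed all 10. RNA-seq had been performed in A549 cells, an established human lung adenocarcinoma line, 72 h after infection with lentiviruses that expressed a control shRNA (shctrl, 2 libraries) or an shRNA against USP2-AS1 (shUSP2-AS1, 2 libraries). USP2-AS1 is a long noncoding RNA gene annotated antisense to USP2. All 4 libraries thus came from infected A549 cells and differed by label only in the shRNA, and with 1 shRNA per group an effect of the hairpin other than on USP2-AS1 cannot be told apart from the knockdown. Values are normalized read counts, that is, reads per gene divided by a size factor of the library. Reads recovered for the listed genes summed to between 10772788 and 14120472 per library. Counting error was set by the reads of each gene. In shUSP2-AS1 cells it alone gave the log2 ratio of the replicates an SE from 0.02 for CCND3 to 0.39 for CCNE2. The next largest was 0.15 for CDK2. Every listed gene had an adjusted p-value below 0.05 in the deposited comparison of the same 4 libraries, so a member had to differ to be listed at all, and the tests given here repeat that comparison rather than add to it. USP2-AS1 itself had 24 and 22 reads in shctrl cells against 2 and 7 reads in shUSP2-AS1 cells, a log2 fold change of -2.39 (SE 0.56, limma adjusted p = 0.000597). It was -1.78 without shUSP2-AS1 replicate 1 and -2.99 without shUSP2-AS1 replicate 2, and was not called in a test for a change beyond 2-fold (adjusted p = 0.0723, from 0.000294 over the alternatives).

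Cyclins are regulatory subunits that switch on their partner kinases in turn as a cell proceeds through division. The D cyclins work with CDK4 and CDK6 in G1 and phosphorylate the retinoblastoma protein, which frees E2F factors to transcribe genes for S phase. The E cyclins with CDK2 drive entry into S phase, cyclin A2 with CDK2 and later CDK1 carries cells through S phase and G2, and the B cyclins with CDK1 drive mitosis. The transcripts of the E, A and B cyclins and of CDK1 oscillate in dividing cells, whereas those of the D cyclins follow growth signals more than cell cycle position. In bulk RNA, fewer cells in a given phase and less RNA per cell cannot be told apart.

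In the deposited hg38 coordinates, CCND1 (ENSG00000110092) lies at chr11:69641156-69654474, CCND3 (ENSG00000112576) at chr6:41934934-42050357 and CDK6 (ENSG00000105810) at chr7:92604921-92836573. CCNE1 (ENSG00000105173) lies at chr19:29811991-29824312 and CDK2 (ENSG00000123374) at chr12:55966781-55972789. CCNA2 (ENSG00000145386) lies at chr4:121816444-121823883, CCNB1 (ENSG00000134057) at chr5:69167135-69178245, CCNB2 (ENSG00000157456) at chr15:59105126-59125045 and CDK1 (ENSG00000170312) at chr10:60778331-60794852. CCNE2 carries the identifier ENSG00000175305. Each of the 10 genes lies on a different chromosome, and the values count reads over the exons of each gene.

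CCNA2, CCNB1, CCNB2 and CDK1, the members of S phase, G2 and mitosis, are genes whose promoters are known for CCAAT boxes, which the factor NF-Y binds, and for the cell cycle genes homology region (CHR), which complexes that restrict transcription to late cell cycle phases bind. Their promoters are therefore shown, 5′ to 3′ on the strand of the gene, from the RefSeq table of GRCh38.p14. The stretches are chr4:121823884-121824003 on the minus strand for CCNA2, chr5:69167030-69167134 on the plus strand for CCNB1, chr15:59105026-59105125 on the plus strand for CCNB2 and chr10:60778448-60778477 on the plus strand for the second of the RefSeq starts of CDK1. The first 3 lie upstream of the start and outside annotated exons, and the CDK1 stretch was kept to 30 bases because it and the bases around it lie in an annotated exon. Capitals mark CCAAT boxes, which read ATTGG where they lie on the opposite strand. They also mark the CHR, which was searched as TTTGAA. A form of it that some cell cycle genes carry, TTTAAA, was searched as well.
CCNA2: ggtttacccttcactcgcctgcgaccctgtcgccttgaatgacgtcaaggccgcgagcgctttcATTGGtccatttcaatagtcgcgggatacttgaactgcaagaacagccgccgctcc
CCNB1: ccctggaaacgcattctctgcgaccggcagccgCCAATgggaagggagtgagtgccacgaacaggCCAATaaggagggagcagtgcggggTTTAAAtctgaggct
CCNB2: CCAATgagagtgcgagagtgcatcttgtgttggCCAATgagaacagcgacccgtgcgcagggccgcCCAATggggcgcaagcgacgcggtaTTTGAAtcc
CDK1: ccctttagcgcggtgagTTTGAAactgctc

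In CCNB1 and CCNB2 CHR letters stood at nearly the same place, from base -30 to -25 and from base -29 to -24 relative to the start, each with CCAAT letters upstream at -87 to -83. Outside the stretch shown, CCNB2 held further CHR letters at -193 to -188. CCNA2 held CCAAT letters on the opposite strand at -56 to -52 and no exact CHR letters. The second CDK1 start held CHR letters at -13 to -8 and at -69 to -64 and the E2F letters TTTCGCGC at -128 to -121. On the opposite strand it held CCAAT letters at -78 to -74 and -46 to -42, outside the stretch shown, and CHR letters at 9 to 14. The first CDK1 start held CHR letters at -161 to -156 and -131 to -126, CCAAT letters at -150 to -146 and the E2F letters at 19 to 26. The RefSeq table held promoters of 7 of the 10 members, with 11 starts, and none for CCNE2, CCND1 and CDK2. CCNE1 had CHR letters at -28 to -23 without CCAAT letters, 2 of the 3 CCND3 starts had CCAAT letters alone, and neither CDK6 start had any. Over all 35116 promoters of the table, 300 bases each and searched on both strands, 24% held TTTGAA or TTTAAA, 34.6% held CCAAT, 9.27% held both, and 3.31% held one of the E2F strings TTTCCCGC, TTTGGCGC, TTTCGCGC or TTTGCCGC. These matches describe letters in a window and not bound sites.

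The comparison asked how the transcripts of the cyclin and CDK machinery differed after USP2-AS1 knockdown. The 4 members of S phase, G2 and mitosis and the 3 members of the G1/S transition were lower in the shUSP2-AS1 libraries, at 18.7% to 42.1% of their shctrl mean. The 3 members of G1 lay closer to the control, at 64.6% to 87.6%. Genes were called where the adjusted p was below 0.05 and the log2 fold change reached 1 in either direction (limma with Benjamini-Hochberg adjustment). On this rule 7 of the 10 members were called lower and 0 higher (0 also at an unadjusted p below 0.05 and by edgeR and DESeq2), against 13.5% called lower and 16.1% called higher of all 6812 genes tested. Without the fold change threshold all 10 were called lower, against 49.4% of genes tested, and in all 10 both shUSP2-AS1 libraries lay below both shctrl libraries, which also held for 49.3% of genes tested. The median log2 fold change was -1.69 over the members and 0.19 over all genes tested.

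**Figure D1:**
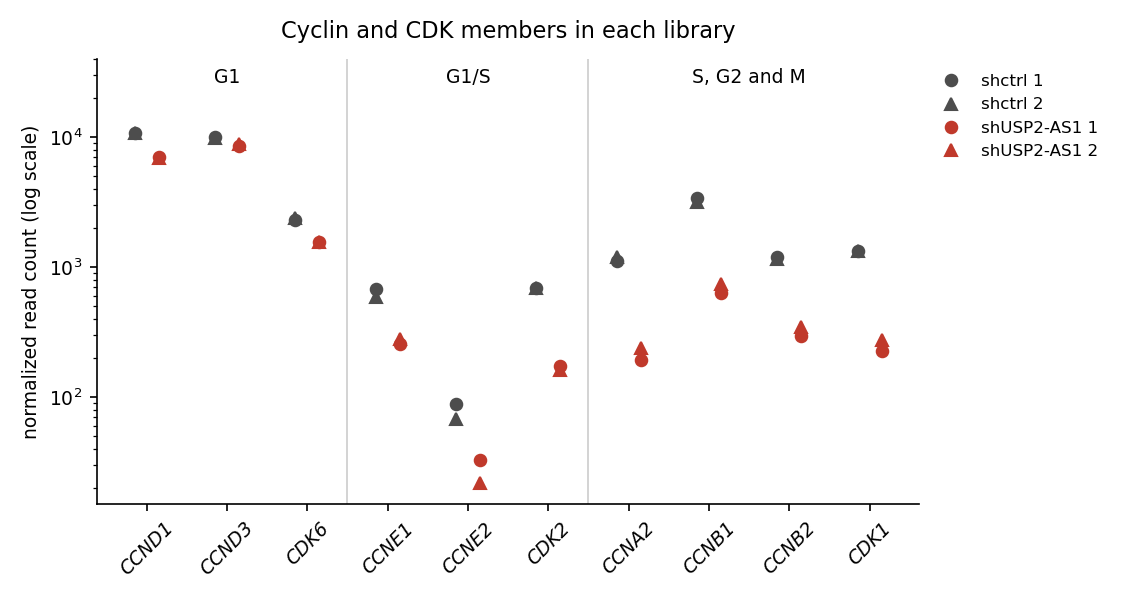
Normalized read counts (log scale) of the 10 members in each of the 4 libraries, with shctrl in grey, shUSP2-AS1 in red, circles for replicate 1 and triangles for replicate 2. The groups are apart for every member, narrowly for CCND3 and widely for CCNA2, CCNB1, CCNB2, CDK1 and CDK2.

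CCND1, the cyclin D that growth signals induce, had normalized read counts of 10843 and 10858 in shctrl cells against 7087 and 6925 in shUSP2-AS1 cells. The replicates lay close together and the groups were well apart, with a log2 fold change of -0.63 (SE 0.05, adjusted p = 1.12e-09) that did not reach the fold change threshold. CCND3, the other D cyclin listed, had 10002 and 9959 in shctrl cells against 8639 and 8841 in shUSP2-AS1 cells. Its log2 fold change of -0.19 (SE 0.05, adjusted p = 0.000843) was the smallest of the 10, and both groups held between 8215 and 10351 reads per library. CDK6, their kinase, had 2312 and 2412 in shctrl cells against 1560 and 1568 in shUSP2-AS1 cells, a log2 fold change of -0.59 (SE 0.06, adjusted p = 2.57e-08). CDK6 and CCND1 were thus at near the same fraction of their control, 66.2% and 64.6%. CCND1 shares 10.4% of its exon bases with LTO1 on the opposite strand, which is not in the table.

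By normalized read count and per kilobase of gene length, the D cyclins changed their order. The log2 ratio of CCND1 to CCND3 was 0.12 in both shctrl libraries against -0.29 and -0.35 in shUSP2-AS1 cells, a difference of -0.44 (SE 0.03, n = 2 per group). Per kilobase of gene length, CCND1 was the higher of the pair in the shctrl libraries, at a mean of 2279 ± 2.13 (SD, n = 2) against 1732 ± 5.28. In the shUSP2-AS1 libraries the order turned, with 1472 ± 23.9 for CCND1 and 1517 ± 24.9 for CCND3 per kilobase, and the ranges of the pair did not overlap in either group. Which of the pair is higher within a group depends on the gene length used, which is not that of the transcript expressed. With 2 libraries per group the exact two-sided permutation test cannot give a p below 0.333, which was the value here (0.417 after adjustment over the 5 pairs of related members compared).

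Of the G1/S members, CCNE1, which activates CDK2 for S phase entry, had 682 and 587 in shctrl cells against 256 and 279 in shUSP2-AS1 cells. It fell by 1.24 on the log2 scale (SE 0.10, adjusted p = 3.75e-09), to 42.1% of control. CCNE2, its close relative, was the least abundant member, with 88.9 and 68.1 in shctrl cells against 32.6 and 22.0 in shUSP2-AS1 cells, which stand for 92, 62, 31 and 25 reads. It fell 2.88-fold (adjusted p = 5.66e-05), to 34.8% of control, with the largest SE of the members (0.27 on the log2 scale) and a 95% interval of the log2 fold change from -2.08 to -0.93. Both calls ended when the test asked for a change beyond 2-fold rather than for any change, with adjusted p = 0.0851 for CCNE1 (1.03e-28 to 0.0851 over the alternatives) and 0.207 for CCNE2 (2.67e-07 to 0.207). CCNE2 shares 37.0% of its exon bases with INTS8 on the opposite strand, a gene that is not in the table, and where counting did not use strand, which is not given in the sources used here, their reads cannot be told apart.

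CDK2, the kinase that the E and A cyclins activate, had 694 and 688 in shctrl cells against 174 and 163 in shUSP2-AS1 cells. It fell by 2.03 (SE 0.10, adjusted p = 5.11e-12), to 24.3% of control, a lower percentage than that of either E cyclin, a difference that was not tested. The log2 ratio of CDK2 to CDK6 went from -1.74 and -1.81 in shctrl cells to -3.16 and -3.26 in the shUSP2-AS1 libraries, a difference of -1.44 (SE 0.06, exact permutation p = 0.333, adjusted 0.417). This was the widest change of ratio among the 5 pairs. For the E cyclins no difference in response was seen, although this test cannot give a p below 0.333 for any pair. The log2 ratio of CCNE1 to CCNE2 was 2.93 and 3.09 in shctrl cells against 2.93 and 3.61 in shUSP2-AS1 cells. The groups overlapped, the difference was 0.26 (SE 0.35, exact permutation p = 0.667, adjusted 0.667), and without shUSP2-AS1 replicate 2 it was -0.07. On the opposite strand, CDK2 shares 14.5% of its exon bases with ENSG00000258554 and 2.29% with PMEL, neither of which is in the table.

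The members of S phase, G2 and mitosis included the 3 largest decreases of the 10 (CCNA2, CDK1 and CCNB1). CCNA2, cyclin A2, had 1120 and 1209 in shctrl cells against 195 and 240 in shUSP2-AS1 cells. It fell by 2.42 (SE 0.10, adjusted p = 5.54e-13), to 18.7% of control or 5.35-fold lower. CDK1, the kinase of mitosis, had 1332 and 1326 in shctrl cells against 227 and 277 in shUSP2-AS1 cells, and fell by 2.40 (SE 0.09, adjusted p = 2.47e-13), within error of CCNA2. CCNB1, the main partner of CDK1 at entry into mitosis, had 3401 and 3178 against 637 and 748, and fell by 2.25 (SE 0.07, adjusted p = 2.50e-14). CCNB2, the second B cyclin, had 1195 and 1166 against 295 and 350, and fell by 1.87 (SE 0.09, adjusted p = 2.83e-12). For each of the 4 the lowest control library exceeded the highest shUSP2-AS1 library by more than the spread of either group. Both shUSP2-AS1 libraries lay below both shctrl libraries in 49.3% of all genes tested, and listing itself required a difference. CCNA2 shares 9.24% of its exon bases with EXOSC9 on the opposite strand, which is itself in the table.

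The ratio between the B cyclins was lower in both shUSP2-AS1 libraries than in both shctrl libraries. With 2 libraries per group such a separation gives a permutation p of 0.333, the lowest possible. The log2 ratio of CCNB1 to CCNB2 was 1.51 and 1.45 in shctrl cells against 1.11 and 1.10 in shUSP2-AS1 cells, a difference of -0.38 (SE 0.03, exact permutation p = 0.333, adjusted 0.417). The log2 ratio of CDK1 to CDK2 was 0.94 and 0.95 in shctrl cells against 0.39 and 0.76 in shUSP2-AS1 cells, a difference of -0.37 (SE 0.19, exact permutation p = 0.333, adjusted 0.417), and the groups did not overlap. Its size depended on the shUSP2-AS1 library used, at -0.56 without replicate 2 and -0.18 without replicate 1.

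The 4 late members shared a difference within the shUSP2-AS1 group. Replicate 2 exceeded replicate 1 by 0.31 in CCNA2, 0.29 in CDK1, 0.24 in CCNB2 and 0.23 in CCNB1 on the log2 scale, where counting error alone gives an SE of 0.14, 0.13, 0.11 and 0.08. The median of this difference was 0.01 over all genes tested and 0.05 over the 922 genes called lower, and it exceeded 0.2 in 8.69% and 21.9% of them. In the same libraries USP2-AS1 had 7 reads in replicate 2 and 2 in replicate 1. The other members showed no common direction, at -0.03 in CCND1, 0.03 in CCND3, 0.01 in CDK6, 0.13 in CCNE1, -0.09 in CDK2 and -0.57 in CCNE2, where counting error gives an SE of 0.39. On 7 and 2 reads a difference in USP2-AS1 level between these replicates was not established. Any part of it in the difference of the late members was not tested.

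**Figure D2:**
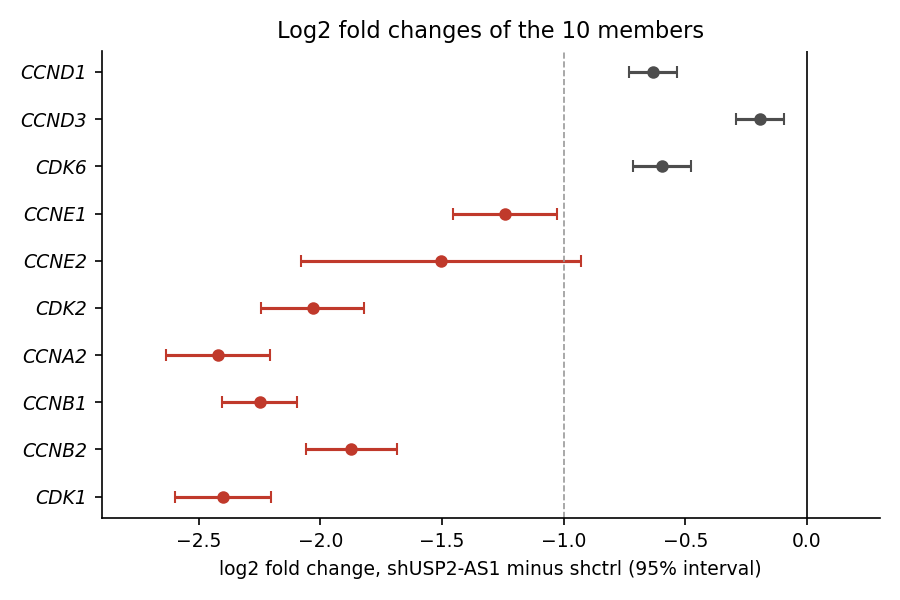
Log2 fold change of each member, shUSP2-AS1 minus shctrl, with its 95% interval from limma; red points were called lower, grey points were not, and the dashed line marks a log2 fold change of -1. The G1 members lie between -0.63 and -0.19 and the members of S phase, G2 and mitosis between -2.42 and -1.87.

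Grouped by phase, the log2 fold changes did not overlap between the G1 members and the rest. They ran from -0.63 to -0.19 in G1 (0 of 3 called, median -0.59), from -2.03 to -1.24 at G1/S (3 of 3 called) and from -2.42 to -1.87 in S phase, G2 and mitosis (4 of 4 called, median -2.33). Since CDK2 was lower than CCNB2 on this scale, the latter 2 ranges overlapped. By the same call rule, 13.5% of all genes tested were called lower. The gap between G1 and G1/S holds for the members only. CDK4, the other kinase of the D cyclins, was not a member and lay inside that gap at -0.97 (not called). Of all genes tested, 1.32% had a log2 fold change below that of CCNA2, 1.37% below that of CDK1, 4.11% below that of CCNB2, 9.42% below that of CCNE1 and 48.8% below that of CCND3. CCND3 thus sat near the middle of the listed genes, whereas CCNA2 and CDK1 sat near the lower end.

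**Figure D3:**
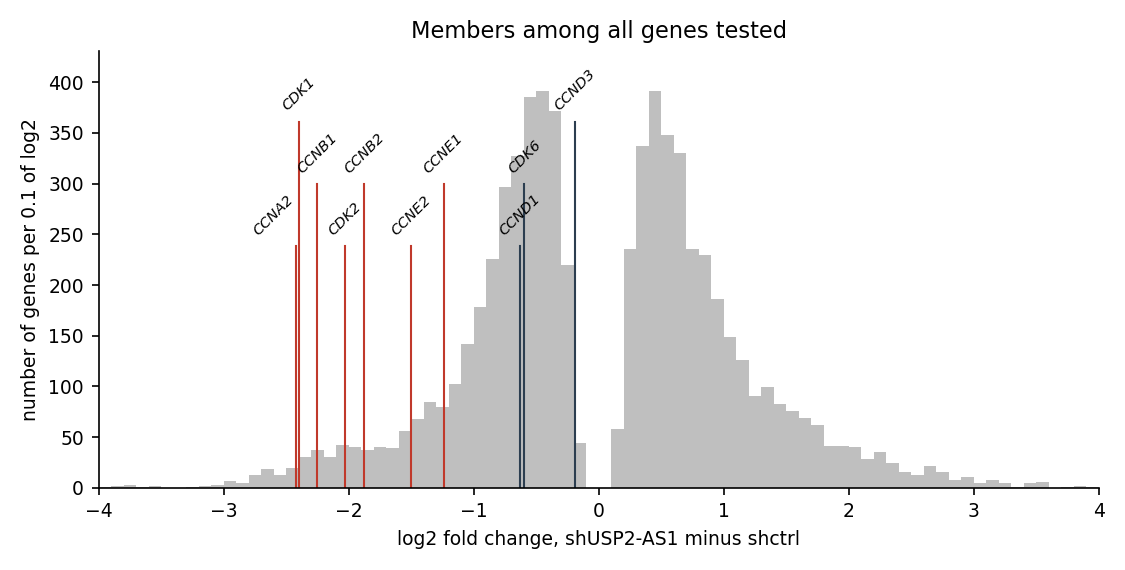
Number of genes per 0.1 of log2 fold change (shUSP2-AS1 minus shctrl) among the genes tested, shown from -4 to 4, with the members as vertical lines, red where called lower. The gap around 0 reflects that only genes below an adjusted p of 0.05 were deposited; CCND3 stands at its left edge and the late members in the lower tail.

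The make-up of the cyclin transcripts differed between the groups. Per kilobase of gene length, the shctrl libraries ranked CCND1 (2279), CCND3 (1732), CCNB1 (1352), CCNB2 (429), CCNA2 (424), CDK1 (338), CCNE1 (258), CDK6 (193), CDK2 (178) and CCNE2 (17.9), and only CCNB2 and CCNA2 overlapped with their neighbour. The shUSP2-AS1 libraries ranked CCND3 (1517), CCND1 (1472), CCNB1 (285), CDK6 (128), CCNB2 (117), CCNE1 (109), CCNA2 (79.1), CDK1 (64.2), CDK2 (43.3) and CCNE2 (6.21), with an overlap between CCNB2 and CCNE1. CDK6 moved from rank 8 to rank 4 in this order and CDK1 from rank 6 to rank 8. Gene length was near that of all annotated exon bases and not that of the transcript expressed, so the order between genes depends on it.

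The summed per-kilobase level of the 7 cyclins was 6551 and 6433 in shctrl cells against 3539 and 3630 in shUSP2-AS1 cells. CCND1 and CCND3 together made up 61.3% and 62.3% of it in shctrl cells against 84.4% and 82.4% in shUSP2-AS1 cells. CCNB1 made up 21.3% and 20.3%, then 7.40% and 8.47%, and CCNA2 went from a mean of 6.53% to 2.20%. On this scale the transcripts of these 7 cyclins were thus mostly those of the D cyclins in both groups. The share of the D cyclins was larger after knockdown, although both were themselves below their control. The other cyclins in the table are not part of this sum.

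Among the 3 kinases the summed per-kilobase level was 706 and 712 in shctrl cells against 230 and 241 in shUSP2-AS1 cells. CDK1 made up 48.0% and 47.4% of it, then 25.1% and 29.3%. CDK6 made up 26.7% and 27.7%, then 55.4% and 53.3%, so the highest of the 3 on this scale changed from CDK1 to CDK6. CDK2 made up 25.3% and 24.9%, then 19.4% and 17.4%.

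**Figure D4:**
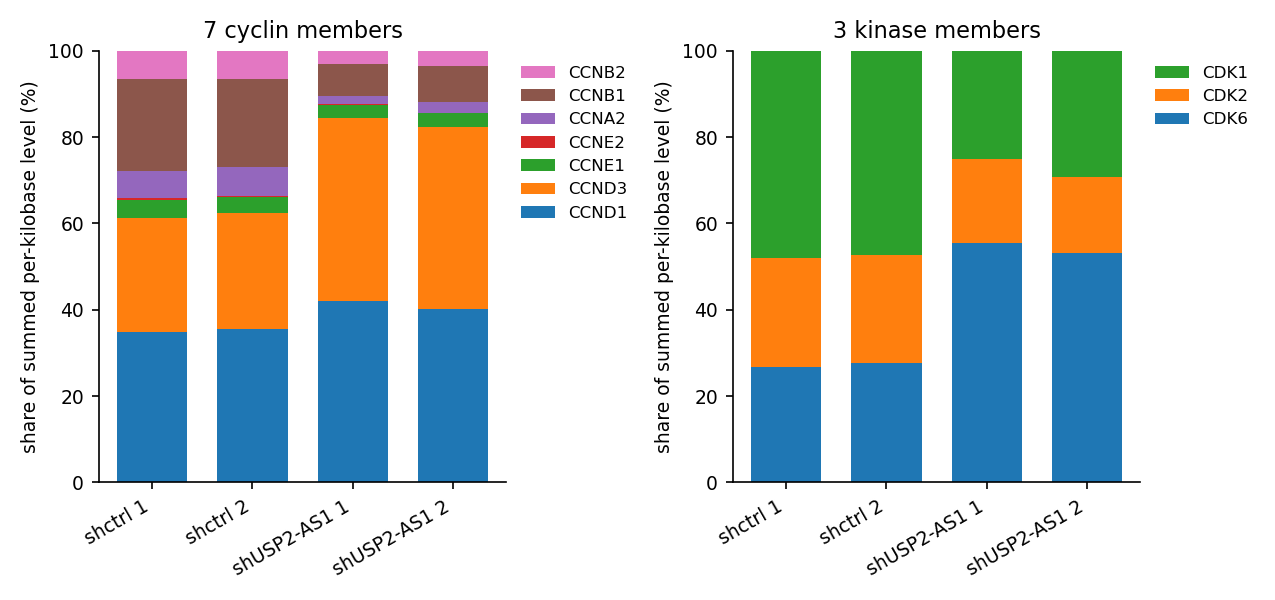
Share of the summed per-kilobase level (normalized read count divided by gene length in kilobases) that each of the 7 cyclins (left) and 3 kinases (right) made up in each of the 4 libraries; bars are stacked to 100%. Mean shares over 2 libraries rose from 61.8% to 83.4% for the D cyclins and from 27.2% to 54.3% for CDK6. Per kilobase, CCND1, CCND3 and CDK6 themselves were lower in the shUSP2-AS1 libraries.

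Of 23 other cyclin genes 8 were listed, of which 1 was called lower and 1 higher, near the 13.5% and 16.1% of all genes tested, with a median log2 fold change of 0.40. CCNF, a cyclin that acts in a ubiquitin ligase and itself peaks in G2, fell by 1.73 (SE 0.10, adjusted p = 6.63e-11), from 708 and 792 to 207 and 244. CCNG1, a cyclin known as a p53 target, rose from 1493 and 1420 to 3100 and 3259, a log2 fold change of 1.13 (SE 0.06, adjusted p = 6.45e-12) that was not called in a test for a change beyond 2-fold. Of 18 other CDK genes 6 were listed and 0 were called at the fold change threshold in either direction, with a median of -0.52. At an adjusted p below 0.05 alone, 5 of the 6 were called lower and 1 higher, against 49.4% of all genes tested called lower. At the threshold edgeR also gave 0, but RLE scaling and DESeq2 with its own size factors each called 2 lower, and leaving out shctrl replicate 2 or shUSP2-AS1 replicate 2 each gave 1. CDK4, the other kinase of the D cyclins and named here after its value was seen, had 2168 and 1958 in shctrl cells against 1057 and 1050 in shUSP2-AS1 cells, a log2 fold change of -0.97 (SE 0.06, adjusted p = 2.39e-10) just short of the threshold. It was thus at 51.1% of control, below CDK6 at 66.2%, and CCND2 was not listed, which does not show that it was unchanged.

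Of 18 regulators of cyclin-CDK complexes, 10 were listed, 7 were called lower and 1 higher, with a median log2 fold change of -1.48. Of all genes tested, 13.5% were called lower and 16.1% higher. PKMYT1, a kinase that holds CDK1 inactive, fell by 2.69 (SE 0.09, adjusted p = 2.44e-14), from 1280 and 1223 to 189 and 196. CDC25C, the phosphatase that reverses this and activates CDK1, fell by 2.68 (SE 0.22, adjusted p = 3.95e-09), from 223 and 195 to 25.2 and 39.6. PKMYT1 and CDC25C, with opposite actions on CDK1, were at 15.4% and 15.5% of control. Of the CDK-binding subunits, CKS1B fell by 2.10 and CKS2 fell by 1.75. CDKN1A, which encodes the CDK inhibitor p21, was the regulator called higher, with 7436 and 6989 in shctrl cells against 20618 and 20765 in shUSP2-AS1 cells, a log2 fold change of 1.52 (SE 0.05, adjusted p = 2.50e-14).

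Of 13 factors of cyclin destruction 8 were listed, 4 were called lower and 0 higher (1 higher at an adjusted p below 0.05 alone, 0 by edgeR at the threshold), with a median of -1.20. The shares over all genes tested were 13.5% lower and 16.1% higher. CDC20, the activator of the anaphase promoting complex in mitosis, fell by 2.86 (SE 0.07, adjusted p = 2.17e-15), from 2717 and 2711 to 348 and 397. The ubiquitin conjugating enzymes of that complex were lower too, as UBE2C fell by 2.79 and UBE2S fell by 1.97, and the inhibitor of the complex, FBXO5, fell by 1.84.

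**Figure D5:**
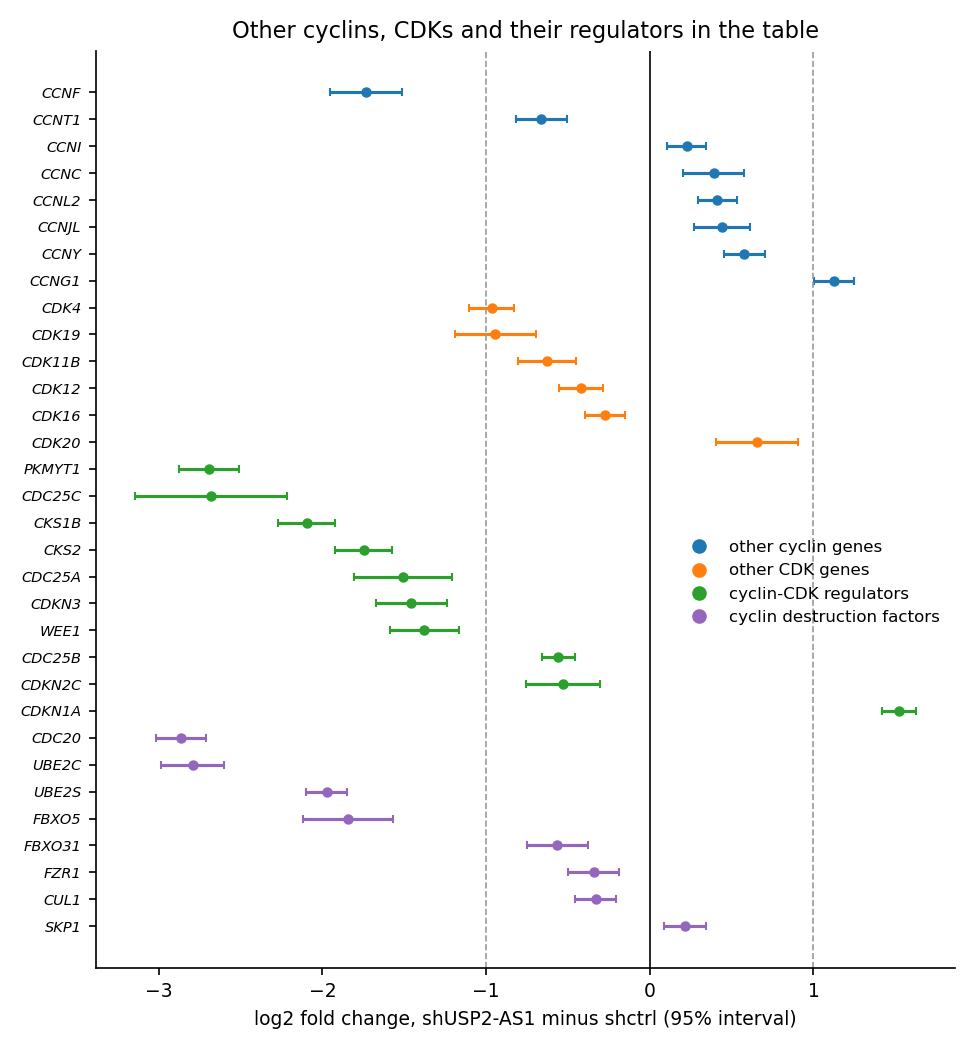
Log2 fold change with its 95% interval from limma for the listed genes of 4 lists (other cyclins, other CDKs, cyclin-CDK regulators, cyclin destruction factors); dashed lines mark -1 and 1. The regulators and destruction factors hold 11 genes called lower, and CCNG1 and CDKN1A are the genes called higher. Of all genes tested, 13.5% were called lower and 16.1% higher.

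Genes outside these lists with values most like the mean of CCNA2, CCNB1, CCNB2 and CDK1 over the 4 libraries were TTK, DLGAP5, MAD2L1, RECQL4 and RAD51AP1, at a distance of 0.05 to 0.07 (Euclidean, log2 values centred on the shctrl mean, 5996 genes searched). TTK, the nearest, had 352 and 356 in shctrl cells against 69.4 and 82.8 in shUSP2-AS1 cells. The genes most like CCND1 were LRPPRC, LAGE3, AMH, SEMA4C and DNAJC2, at a distance of 0.01 to 0.03. LRPPRC had 6774 and 6808 in shctrl cells against 4444 and 4311 in shUSP2-AS1 cells. This likeness is a description over 4 libraries.

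Markers of cell identity moved between the groups as well. Of 8 epithelial markers 6 were listed, while EPCAM and CDH1 were not listed. Of the 6, 4 were lower, KRT7, KRT8, KRT18 and KRT81, with log2 fold changes of -0.49, -0.77, -1.05 and -0.45. The other 2 were higher, KRT19 at 0.75 and CLDN4 at 1.81. Only KRT18 was called lower and only CLDN4 higher. Their summed values were mostly those of the 4 keratins that were lower. The sums ran from 230235 to 244492 in the shctrl libraries and from 151682 to 161278 in the shUSP2-AS1 libraries. Of 12 leukocyte, endothelial and fibroblast markers 3 were listed (COL1A1, LUM and ACTA2), all 3 called higher. Their summed values ran from 380 to 443 in the shctrl libraries and from 1013 to 1093 in the shUSP2-AS1 libraries. Over all genes tested, 13.5% were called lower and 16.1% higher. The leukocyte and endothelial markers PTPRC, CD3E, CD14, PECAM1 and VWF were not listed, so their levels are not known here. The part of these changes in the decrease of the members was not tested.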

How the data were processed

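RNA-seq was performed in A549 cells infected with shctrl or shUSP2-AS1 lentiviruses, with 2 biological replicates per group (4 libraries). The submitters' processing notes name HISAT2 2.0.5, featureCounts 1.5.0-p3, DESeq2 1.20.0 and hg38. The authors deposited, per gene and library, a normalized signal (reads counted in a gene over the size factor of the library) for 6828 genes that all had an adjusted p-value under 0.05 in their own comparison. Their fold changes, p-values and adjusted p-values were not used. Columns named scr and sh216 were taken as shctrl and shUSP2-AS1.

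The value of 1 read was 0.966 and 1.10 with shctrl against 1.05 and 0.88 with shUSP2-AS1, and all values (100%, tolerance 0.05 reads) came out whole. Replicates of a group differed by more than counting error (chi-square per degree of freedom 3.75 and 3.84). Limma 3.58.1 (R 4.3.3, eBayes with trend) was run on log2(value + 1) after genes averaging under 10 were dropped, which left 6812. A call required an adjusted p (Benjamini-Hochberg) below 0.05 together with a log2 fold change of 1 or more in size. All 10 members passed the filter. Fold changes are on the log2(value + 1) scale. On the recovered reads, edgeR 4.0.16 called 940 genes lower and 1085 higher, against 922 and 1098 with limma. DESeq2 1.42.0 was a further alternative. The fits were tested on simulated data.

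Members and lists were chosen with earlier results of these data known. Named were all 10 members, at most 5 called genes of each other list by largest absolute change, and the 5 genes nearest in pattern to 2 references with a mean of at least 100. Gene length and coordinates are those deposited, and exon overlaps come from GENCODE v44. Leaving out a library, other scalings, filters, pseudocounts and the replicate block were tried.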

Additional observations from a re-analysis of the deposited data

How the results depend on the processing

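All 160 log2 fold changes of the 10 members over 16 alternatives stayed below 0, and none crossed -1. Alternatives that changed only the filter, the block or the call rule returned the fold change of the main fit, so these could not change its sign. Member calls differed only where the call rule did. CCNE1 and CCNE2 were not called when tested against a fold change of 2. CCND1, CCND3 and CDK6 were called with no fold change threshold. The 7 members called lower stayed 7 without any 1 library (range 7 to 7, the lone library assumed to vary like the others), with edgeR, both DESeq2 fits, all scalings and the replicate block (7); testing against a fold change of 2 gave 5 and no threshold gave 10. Replicate numbers did not pair the libraries (correlation of deviations -0.04 over 2 pairs), and the block changed no other call. Testing against a fold change of 2 left 523 genes lower and 541 higher of all tested and 0 other cyclins higher, and USP2-AS1 at -2.39 was no longer called (adjusted p = 0.0723, from 0.000294 over the alternatives). With no fold change threshold 3362 genes were lower and 3449 higher, 2 other cyclins lower and 6 higher, 5 other CDKs lower and 1 higher, and 7 destruction factors lower and 1 higher. Other CDKs called lower numbered 2 with RLE scaling and 2 with DESeq2's own size factors, and 0 to 1 without 1 library (1 without shctrl replicate 2 or shUSP2-AS1 replicate 2). Without shUSP2-AS1 replicate 2 the difference of the CCNE1 to CCNE2 ratio reversed to -0.074 (range -0.07 to 0.60 over libraries left out). With RLE scaling the median over genes tested shifted by -0.12 (log2), and scalings were computed from listed genes only. Depth limits CCNE2, with 25 to 92 reads, and USP2-AS1.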
